A study of Mus musculus with 8 samples.

Results

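The 9 genes that encode the pore-forming subunits of AMPA receptors (Gria1 to Gria4) and kainate receptors (Grik1 to Grik5) were examined in a map of Argonaute-bound RNA from mouse forebrain. A cluster, which is a stretch of the genome covered by crosslinked reads, was counted for a gene when its 3' UTR, coding sequence (CDS), 5' UTR or intron column named that gene exactly. All 9 genes were named, among 9962 genes named in these columns over the whole table. They held 249 of 70142 clusters and 6859 of 1834586 reads. The 4 AMPA genes had 145 clusters with 4263 reads, and the 5 kainate genes had 104 clusters with 2596 reads.

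AMPA receptors are glutamate-gated cation channels that carry most fast excitatory transmission in the forebrain, and the number and subunit make-up of those at a synapse set its strength. Kainate receptors are related channels that act both postsynaptically and on transmitter release. Argonaute proteins carry miRNAs, short RNAs that pair through their 5' seed with target mRNAs, mostly in the 3' UTR, and lower translation or stability. FLAG-Ago HITS-CLIP crosslinks RNA to the tagged protein with ultraviolet light, pulls the protein down with a FLAG antibody and sequences the RNA that stays attached.

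The study made 5 libraries from animals that were Camk2a-cre; Rosa-Stopfl/fl-Flag-Ago2. In these, the Camk2a promoter drives Cre, which switches on a Flag-tagged Ago2 placed at the ROSA26 locus. The 3 control libraries came from Rosa-Stopfl/fl-Flag-Ago2 animals, which carry this allele in its silent form. Mice were 8 to 14 weeks old, and the libraries came from 3 experiments. Forebrain tissue was irradiated 3 times with 400 mJ/cm2, each pull-down used part of 1 forebrain, and libraries were amplified with 15 PCR cycles. The labels give the cell type as Camk2a-neuron, and the aim as the detection of miRNA seed targeting in these neurons.

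The deposited values are 1 read count per cluster for the whole study, and no column belongs to a library or a group. For that reason no value below has a replicate spread, a control value or a test, and each is a description of the pooled table. The depth was at least 10 reads in every listed cluster, with a median of 18. Shares of clusters carry 95% Wilson intervals that cover counting error only, and they treat clusters as independent although several come from the same gene. Read counts have no interval, since PCR reads without molecular identifiers are not independent molecules. In bulk tissue, few cells with bound RNA and little bound RNA per cell cannot be told apart, and mRNA levels were not analysed here. An exonic cluster was present in 5 of 5 excitatory neuron markers, 5 of 5 astrocyte markers, 3 of 5 interneuron markers, 3 of 4 oligodendrocyte markers, 1 of 2 oligodendrocyte precursor markers and 2 of 3 microglia markers, beside 35.9% of protein-coding genes. In reads of exonic clusters per kb of exon, the medians were 29.4 for the excitatory, 43.1 for the astrocyte, 33.5 for the oligodendrocyte, 16.1 for the interneuron, 4.62 for the microglia and 4.15 for the oligodendrocyte precursor markers. By median, the markers of astrocytes and oligodendrocytes thus stood above those of excitatory neurons, whose label the libraries carry. The ranges overlapped, at 15.8 to 114 for excitatory neurons, 19.3 to 90.6 for astrocytes and 0 to 58.5 for oligodendrocytes. The highest values were those of the excitatory markers Nrgn (114) and Camk2a (108). Pvalb and Sst of interneurons, Mog of oligodendrocytes, Cspg4 of their precursors and P2ry12 of microglia had no exonic cluster. The part of other cell types in the results was not tested.

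The miRNAs below are those whose seed matches the results turn on, with the families that are known to act on AMPA subunits. Each is shown 5' to 3' from RefSeq (GRCm38.p6), with the seed, bases 2 to 8, in capitals. Members of the miR-181 family share 1 seed, as do miR-25-3p, miR-92a-3p and miR-92b-3p.
miR-181a-5p: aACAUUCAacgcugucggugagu
miR-181c-5p: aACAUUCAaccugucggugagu
miR-25-3p: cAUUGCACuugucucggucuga
miR-92a-3p: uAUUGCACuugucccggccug
miR-92b-3p: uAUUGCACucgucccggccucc
miR-24-3p: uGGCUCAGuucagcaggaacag
miR-128-3p: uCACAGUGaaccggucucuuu
miR-218-5p: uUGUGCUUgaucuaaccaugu
miR-223-3p: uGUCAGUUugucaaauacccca
miR-137-3p: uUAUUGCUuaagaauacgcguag
miR-501-3p: aAUGCACCcgggcaaggauuug
miR-186-5p: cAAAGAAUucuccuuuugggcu

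For the families described here, the miRNA columns of the table count 6-base matches, which pair with miRNA bases 2 to 7. A match is called under a cluster when at least 1 of the 6 bases lies in it. Longer matches were read from GENCODE M21 transcripts: a 7-mer-m8 also pairs with base 8, a 7-mer-A1 has an A after the 6 bases, and an 8-mer has both. miR-124, a miRNA abundant in neurons, is described by its 6-base match as it stands in the table.

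The 6 matches to miR-124 that lay under clusters in 3' UTRs were all in AMPA subunits, and each of the 4 AMPA genes had at least 1. Matches to miR-129 had a like split, with 5 under 3 AMPA clusters and 0 under kainate clusters, and those were runs of A after a C. In smaller numbers, matches to miR-25/92 (3 and 0), miR-23 (2 and 0) and miR-186-5p (2 and 0) were split the same way. Some families, such as miR-218, had 1 match under kainate and 0 under AMPA clusters. The miR-124 matches are shown because all 4 AMPA genes had one. Each line gives 30 bases of the sense strand of the mm10 transcript, with the match in capitals, including the A of a 7-mer-A1.
Gria1, chr11:57328240-57328245: tcctttggcccaTGCCTTggatggagacag
Gria1, chr11:57328278-57328283: ggagaagggggcTGCCTTccccagaaagaa
Gria1, chr11:57328625-57328630: atacatgattctTGCCTTttcctttgcttg
Gria2, chr3:80688525-80688530: gaaccttctgagTGCCTTAcacaatggttt
Gria3, chrX:41676505-41676510: tttttccttcagTGCCTTAtggaacactct
Gria4, chr9:4420126-4420131: aaattaattgagTGCCTTAatcaaactgtg
The 3 matches in Gria1 were not followed by an A, and those in Gria2, Gria3 and Gria4 were.

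All 9 genes had at least 1 exonic cluster, meaning 1 in the 3' UTR, CDS or 5' UTR, where 35.9% of 21839 protein-coding genes did. Among the 7079 genes within the same range of exon length, 57.5% did. A 3' UTR cluster was present in 7 of the 9 genes, against 21.5% of protein-coding genes and 37.8% of those in the range of length. Grik1 and Grik4 had none. All 9 also had intron clusters, against 28.1% of protein-coding genes with an intron-only cluster. That share was not matched for intron length, which ran from 57330 bases in Grik5 to 680688 in Grik2, and longer introns have more room for a cluster.

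By region, the 9 genes had 21 clusters with 917 reads in 3' UTRs, 30 with 799 reads in CDS, 2 with 151 reads in 5' UTRs and 196 with 4992 reads in introns. Introns therefore held 78.7% of their clusters (73.2 to 83.3), where the share over all protein-coding genes was 58.8%. In related genes it was 87.4% for NMDA receptor subunits and 88.0% for kainate receptor partners. It was 75.2% for AMPA auxiliary subunits and 64.7% for AMPA scaffold, trafficking and editing genes. These shares were not adjusted for intron length. The AMPA and kainate genes had like intron shares of clusters, 77.2% and 80.8%, with intervals that overlap. Of the reads, 34.6% were exonic in the AMPA genes and 15.2% in the kainate genes.

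Per length of exon, the AMPA genes stood at 30.8 to 88.9 exonic reads per kb and the kainate genes at 3.07 to 26.6, so the ranges of the 2 families did not overlap. The medians were 54.7 and 9.64 exonic reads per kb, beside 13.0 over the 7832 protein-coding genes with an exonic cluster. Gria3, which encodes the GluA3 subunit, was highest with 489 exonic reads or 88.9 per kb. Gria1, which encodes GluA1, the subunit delivered to synapses during potentiation, followed with 415 reads or 70.4 per kb. Gria1 lay at the 96.3th percentile of genes with an exonic cluster, and Gria3 above it.

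Gria4, which encodes GluA4, a subunit best known from interneurons and the young brain, had 246 exonic reads or 39.0 per kb. Gria2, which encodes GluA2, the subunit that makes edited receptors impermeable to calcium, had 323 reads over its longer exons, or 30.8 per kb. Both still lay in the upper part of the distribution, at the 87.3th and 81.4th percentile.

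Among kainate genes, Grik5, which encodes a high-affinity subunit that needs a partner to form a channel, was highest with 100 exonic reads or 26.6 per kb. Grik3, with 144 reads over longer exons, was next per length, and Grik2, the main kainate subunit of forebrain principal cells, had 100 reads or 9.64 per kb. Grik4, the other high-affinity subunit, had 37 reads or 6.21 per kb, and Grik1, known mainly from interneurons in the forebrain, had 13 reads or 3.07 per kb. Grik1 and Grik4 were thus at the low end, at the 6.45th and 23.1th percentile, and the 13 reads of Grik1 came from 1 cluster. The ranges of AMPA and kainate genes also stayed apart without the deepest cluster of each gene (18.7 to 53.7 and 0 to 15.4 reads per kb) and, by a small margin, with a minimum of 20 reads per cluster (24.3 and 23.4 at the nearest). They overlapped without clusters that carry a circRNA identifier, because Gria2 then fell to 1.14 reads per kb.

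**Figure D1:**
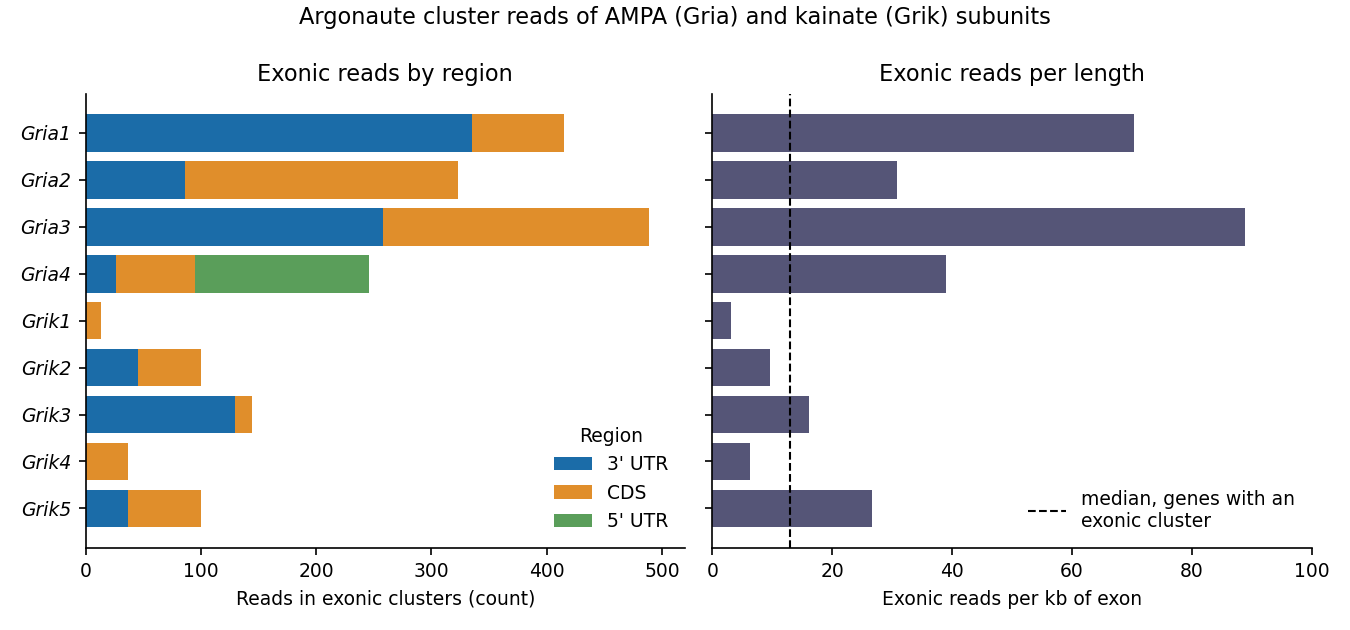
Left, reads in exonic clusters of each subunit gene, stacked by region; right, exonic reads per kb of exon, with a dashed line at the median of protein-coding genes with an exonic cluster (13.0). The 4 Gria genes have the 4 highest values per kb (30.8 to 88.9), and Gria4 alone has reads in a 5' UTR.

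The regions that carried the exonic reads differed among the AMPA genes. In Gria1 the 3' UTR held 335 of 415 exonic reads, and in Gria3 the 3' UTR and CDS held 258 and 231. In Gria2 the CDS held 237 reads and the 3' UTR 86. In Gria4 the 5' UTR held 151 of 246 reads. Per length, the 3' UTRs of Gria1 and Gria3 stood at 129 and 114 reads per kb, and those of Gria2 and Gria4 at 11.8 and 9.24. The Gria2 value overstates its 3' UTR, since only 24 of the 86 reads lay in the last exon. The rest came from clusters of 25 and 37 reads with 3 and 0 bases in the 3' UTR.

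In Gria1, 1 cluster of 305 reads lay at chr11:57328557-57329001 on the plus strand, in the last of 16 exons, 911 to 1355 bases after the stop codon. It ranked 35th in depth among 9284 3' UTR clusters and made up 73.5% of the gene's exonic reads, which are 110 without it. Besides miR-124 it held matches to miR-125, miR-186-5p, miR-23 and miR-24. The miR-186-5p and miR-24 matches reached base 8, and they were the longest in the cluster.
Gria1 miR-186-5p, chr11:57328934-57328939: gcaaagcctgaATTCTTTttgagagatgga
Gria1 miR-24, chr11:57328983-57328988: ccttaagatgcCTGAGCCcatcttttaact
Coordinates here and below are those of the 6 bases; the capitals also show base 8 and the A where they pair. The other Gria1 3' UTR clusters had 16 and 14 reads, and the first of them contained 2 of the 3 miR-124 matches within 98 bases.

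In Gria3, the deepest cluster held 194 reads at chrX:41676317-41676569 on the plus strand and ranked 67th among 3' UTR clusters. It started in the intron before the last exon and covered bases 3 to 232 after the stop codon. Its column counted 2 miR-124 matches, of which 1 lies in the transcript. In the transcript it also held an 8-mer to miR-24 and a pair of matches to the miR-25/92 family, 1 of them reaching base 8.
Gria3 miR-24, chrX:41676405-41676410: cttcaaggatcCTGAGCCAgatttcactct
Gria3 miR-25/92, chrX:41676459-41676464: tattgctgatgGTGCAATgacctttcaata
A second Gria3 cluster of 41 reads, 722 to 869 bases after the stop codon, held another miR-25/92 match. All 3 miR-25/92 matches of the Gria3 3' UTR therefore lay under clusters, while the 9 in the other 3' UTRs did not. The last, of 23 reads at 1324 to 1434 bases, matched none of the families. Without the 194-read cluster, Gria3 has 295 exonic reads.

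Gria2 has a 3' UTR of 7268 bases in transcript Gria2-201 and of 923 bases in Gria2-202. Its clusters beyond the stop codon lay 119 to 270 and 658 to 766 bases after it and held 12 reads each, so both fall in the stretch that the 2 transcripts share. Of the other clusters given to the 3' UTR, 1 of 25 reads reached only bases 1 to 3 after the stop codon. The remaining 1, of 37 reads, lay over a coding exon of both transcripts, although the table names a 3' UTR there. No cluster lay in the distal part of the long 3' UTR. The first of these clusters held the miR-124 match above and a miR-181 match that reached base 8. The Gria2 3' UTR also has 2 8-mers to miR-223, a family reported to act on Gria2, at 1370 and 1653 bases after the stop codon, and neither lay under a cluster. They are shown because the shorter transcript lacks them.
Gria2 miR-223, chr3:80687343-80687348: aaaattataagAACTGACAtcagtttttga
Gria2 miR-223, chr3:80687060-80687065: gagttaaaagcAACTGACAcccagtagtta
Gria2 miR-181, chr3:80688572-80688577: tggcatgggaaTGAATGTcagtgtgactga

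In Gria4, the single 3' UTR cluster of 26 reads crossed the stop codon and covered the first 116 bases of the 3' UTR, with the miR-124 match 21 bases after the stop codon. The deepest Gria4 clusters were in the 5' UTR, in the first exon, with 84 reads at chr9:4796088-4796231 and 67 reads at chr9:4795875-4796049 on the minus strand. Gria4 was the one subunit gene given 5' UTR clusters under the priority of 3' UTR, CDS, 5' UTR and intron. When each named region was counted, the 9 genes had 14 clusters in 5' UTRs in place of 2, because all 11 exonic clusters of Gria3 and 1 of Grik2 also name a 5' UTR. The 84-read cluster held an 8-mer to miR-103-3p, and is shown as the one 8-mer under an exonic cluster outside the 3' UTRs.
Gria4 miR-103-3p, chr9:4796144-4796149: agcctgcaaggATGCTGCAggggactgaga

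Kainate 3' UTRs had 10 clusters, all of 52 reads or fewer. Grik3 had 6 of them with 130 reads, spread from 392 to 5936 bases after the stop codon over a 3' UTR of 6082 bases. The deepest, of 52 reads, lay 1971 to 2139 bases after the stop codon and held a match to miR-99/100, a seed found in 1.25% of all 3' UTR clusters. The others had 30, 14, 12, 12 and 10 reads, and the 2 clusters of 12 reads each held an 8-mer to miR-24, which makes Grik3 and Gria3 the genes with 8-mers to this miRNA under clusters. The second of these 8-mers ends with its A just outside the cluster.
Grik3 miR-24, chr4:125708746-125708751: gggtcagtgtcCTGAGCCAcaaacgtctcg
Grik3 miR-24, chr4:125712838-125712843: gtcgttgatccCTGAGCCAatatcacagtc
Grik3 miR-99/100, chr4:125710083-125710088: agagagagagaaACGGGTAgcaaagagctc

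Grik2 had 2 clusters in 3' UTRs. One of 14 reads covered bases 27 to 200 after the stop codon of Grik2-207 and had matches to 5 families. Among them, an 8-mer to miR-218, a miRNA known from excitatory neurons, lay at the edge of the cluster and shared 1 base with it. The other, of 31 reads, is coding in that transcript and 3' UTR in the shorter Grik2-209. Grik5 had 25 reads at 151 to 271 bases and 12 reads across the stop codon, in a 3' UTR of 520 bases. Its only miR-124 match starts at base 79 after the stop codon and the 12-read cluster ends at base 78, so that match is not counted under a cluster.
Grik2 miR-218, chr10:49101081-49101086: gccaatcacccAAGCACAAactgtcgtctt

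**Figure D2:**
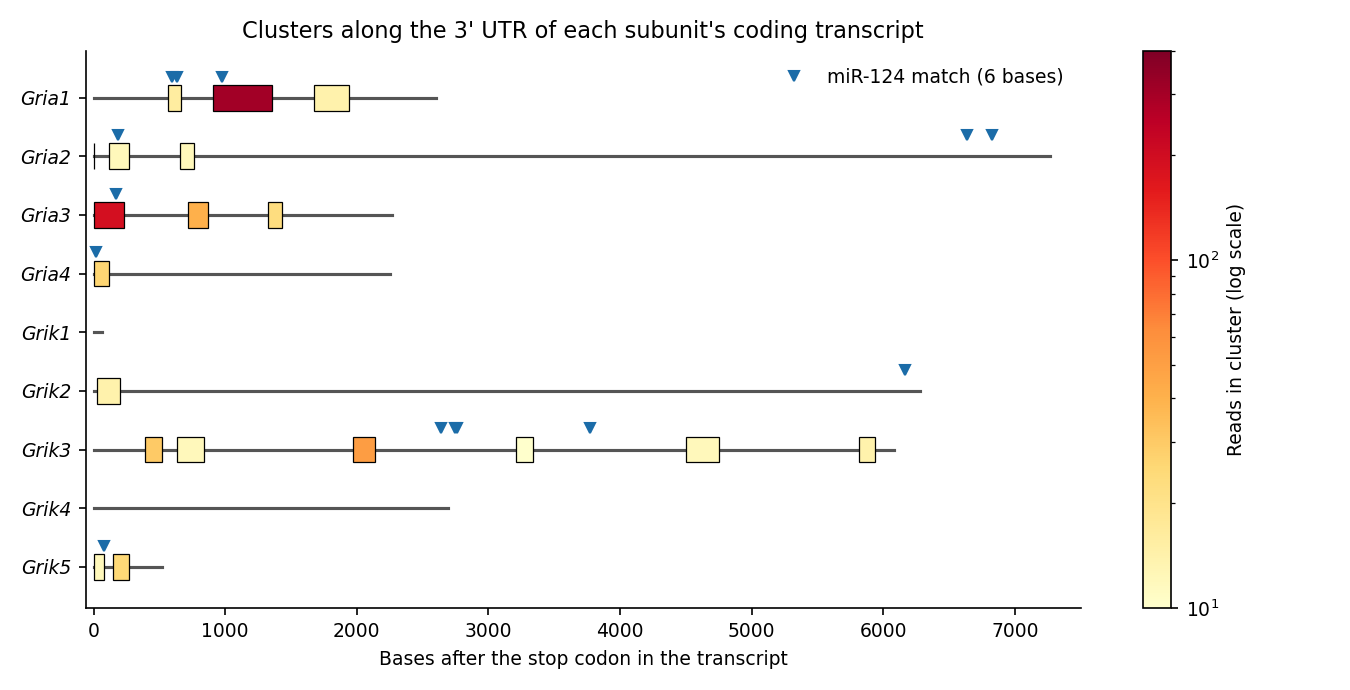
Clusters (boxes, coloured by reads on a log scale) along the 3' UTR of the coding transcript with the longest coding sequence of each subunit, by bases after the stop codon, with triangles at 6-base miR-124 matches in that transcript. The triangles of Gria1, Gria3 and Gria4 sit above clusters, as does 1 of the 3 in Gria2, and none of those in Grik2, Grik3 and Grik5 does.

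Set against the whole 3' UTRs, 6 of 8 miR-124 matches in AMPA 3' UTRs lay under clusters, and 0 of 8 in kainate 3' UTRs. Clusters covered 11.2% of AMPA and 8.58% of kainate 3' UTR bases. Over all 32 miRNA families, 31 of 173 matches in AMPA 3' UTRs lay under clusters, or 17.9%, and 17 of 213 in kainate 3' UTRs, or 7.98%. For miR-129 the counts were 5 of 15 in AMPA and 0 of 14 in kainate 3' UTRs. The 8 kainate matches to miR-124 were 4 in Grik3, 2 in Grik1 and 1 each in Grik2 and Grik5. These are counts of sites that share a few clusters, and they are not independent of one another.

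For the other families known to act on AMPA subunits, a smaller share of matches lay under clusters than the 6 of 16 for miR-124, or 37.5%. Outside this set, miR-24 and miR-125 were close to miR-124, with 4 of 11 matches each, or 36.4%. For miR-99/100 it was 1 of 3. Over all families, 48 of 386 matches in the subunits' 3' UTRs lay under clusters, or 12.4%. Of the miR-25/92 matches 3 of 12 did, and of miR-186-5p 2 of 40. Of miR-181 2 of 15 did, of miR-218 1 of 11, by the 1 shared base, and of miR-223 1 of 9. These last 3 families, at 13.3%, 9.09% and 11.1%, were near the share over all families. None of the 6 miR-137 matches and none of the 17 miR-501-3p matches in the 3' UTRs did. A site without a cluster had fewer than 10 reads or was not called, and the 2 cannot be told apart here. In the share of all 3' UTR clusters with a match, these families stood at 9.98% for miR-186-5p, 7.37% for miR-181, 6.98% for miR-218, 5.05% for miR-223, 3.32% for miR-137 and 4.16% for miR-501-3p, and miR-25/92 at 3.52%. In the 21 clusters of the subunit genes, miR-186-5p and miR-25/92 matched 2, and miR-218 and miR-223 matched 1.

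As a share of the 21 clusters in 3' UTRs, miR-124 and miR-128 each matched 5, or 23.8% (10.6 to 45.1). Over all 9284 clusters of this kind the shares were 10.3% and 13.6%. miR-24 matched 4 of the 21 clusters, an interval of 7.67% to 40.0%, with 6.82% over all. The intervals of miR-24 and miR-124 lay just above the overall share, and that of miR-128 contained it. miR-125, miR-129 and miR-181 matched 3 each, or 14.3%, beside 6.96%, 6.02% and 7.37% over all. Of the 32 families 23 matched at least 1 cluster, and 4 of the 21 clusters matched none. The shares of 32 families were looked at together, with no test.

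The length of the matches under clusters differed among the families. Of the miR-128 and miR-125 matches in the 3' UTR clusters, none extended to base 8 or was followed by an A. Of the 4 miR-24 matches 3 were 8-mers and 1 reached base 8. The 5 clusters with miR-128 lay in Gria2, Gria4, Grik3 and Grik5, and 2 of them were AMPA and 3 kainate. miR-27 matched none of the 21 clusters, with an upper bound of 15.5%, where 13.3% of all 3' UTR clusters had a match.

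**Figure D3:**
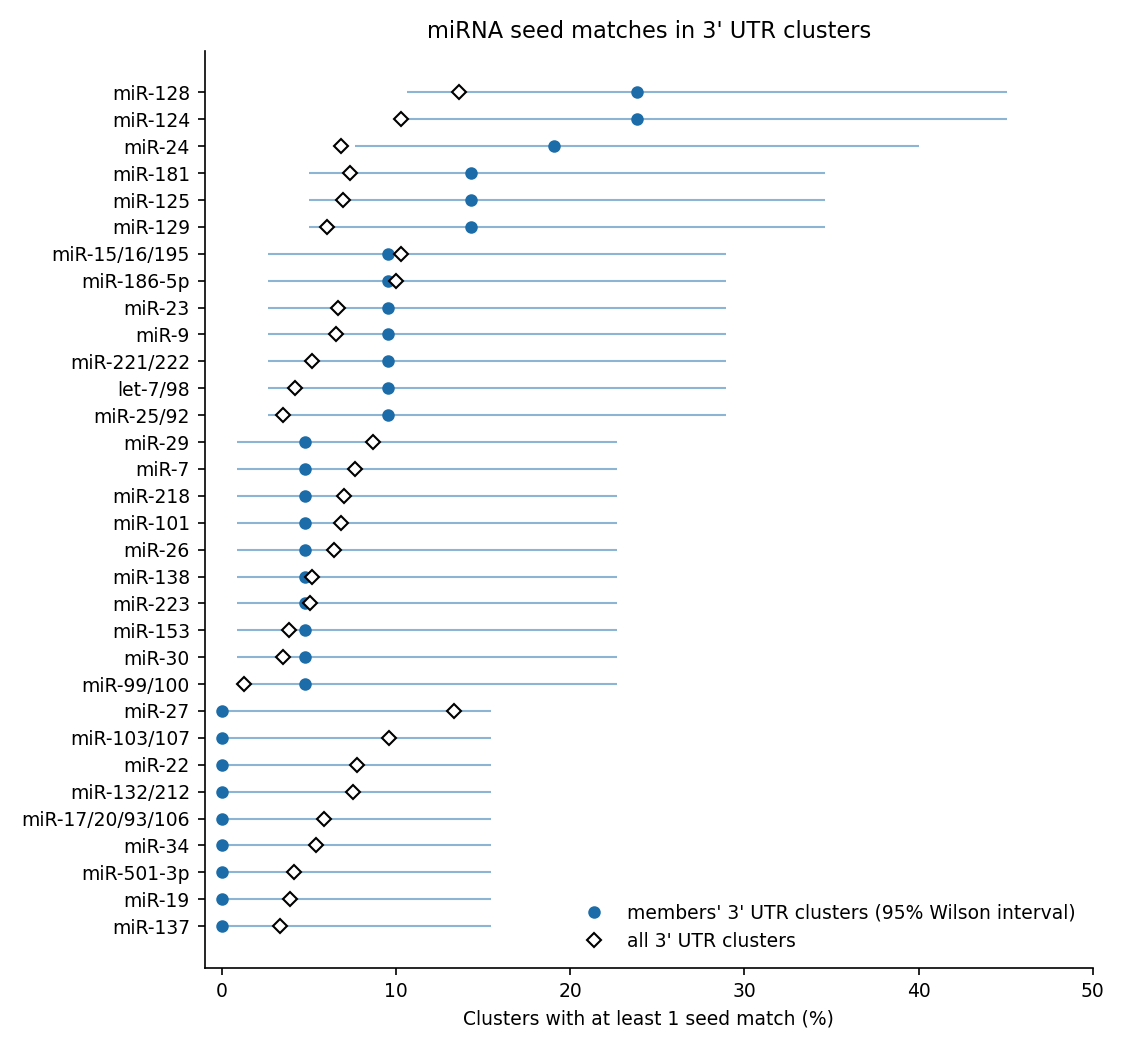
Share of 3' UTR clusters with at least 1 match to each of 32 miRNA families, for the 21 clusters of the subunit genes (circles, 95% Wilson interval) and for all 9284 clusters (diamonds). miR-124 and miR-128 lead at 23.8%, and 9 families are at 0.

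In coding sequence, the AMPA genes had 20 clusters and the kainate genes 10. The deepest was that of Gria2, with 121 reads at chr3:80689173-80689348 in exon 15 of 16, followed by 79 reads in exon 10 of Gria3. The deepest CDS clusters of Gria1 and Gria4 had 29 and 27 reads. Per length, the CDS of Gria2 and Gria3 stood at 85.7 and 83.1 reads per kb, against 28.2 in Gria1 and 24.2 in Gria4. Kainate CDS values ran from 4.33 reads per kb in Grik1 to 21.5 in Grik5. No kainate gene reached the lowest AMPA value, though the margin was small. Every CDS cluster of Gria2 carried a circRNA identifier, so the families would overlap without such clusters. The deepest kainate CDS clusters had 42 reads in Grik5, 27 in Grik4, 20 in Grik2, 14 in Grik3 and 13 in Grik1.

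AMPA subunits share their exon structure, and 10 corresponding coding exons were compared. Gria1 had clusters on 2 of them, Gria2 on 6, Gria3 on 4 and Gria4 on 1. The 207-base exon that is the 6th before the last had clusters in Gria1 with 29 reads, Gria2 with 17 and Gria3 with 79. The 168-base exon, the 9th before the last, had clusters in Gria2 with 39 reads, Gria3 with 18 and Gria4 with 16. Of the 10 positions, 2 had clusters in 3 of the 4 genes and 2 had clusters in 2. Whether the genes share more positions than their own counts give was not tested. At the exon of 371 to 377 bases the clusters of Gria2, with 33 reads, and Gria3, with 25 reads, held the same 6-base match to miR-501-3p in like sequence.
Gria2 miR-501-3p, chr3:80707083-80707088: tgagatctggatGTGCATtgtgtttgccta
Gria3 miR-501-3p, chrX:41610084-41610089: tgaaatctggatGTGCATtgtcttcgctta

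**Figure D4:**
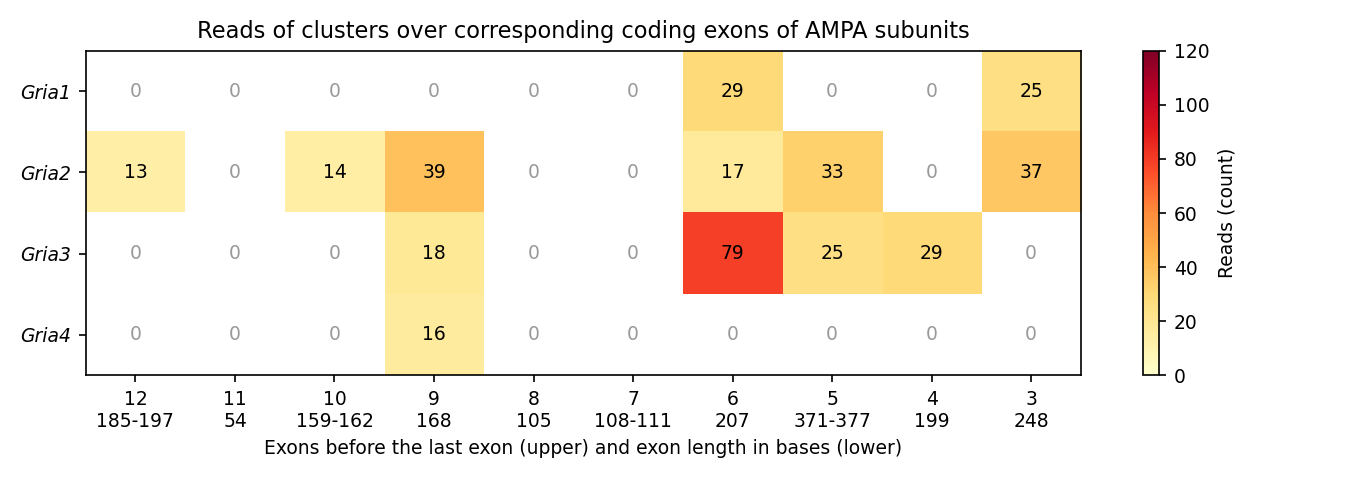
Reads of the clusters over 10 corresponding coding exons of the 4 AMPA subunits, counted back from the last exon of the transcript used for each gene, with exon length in bases. The exons at 6 and 9 before the last carry clusters in 3 of 4 genes, and those at 7, 8 and 11 in none.

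A circRNA identifier was attached to 16 of the 30 CDS clusters, or 53.3%, where 26.7% of all CDS clusters had one. It was attached to 6 of 21 clusters in 3' UTRs (28.6%, with 4.47% over all). Among the 6, the Gria2 clusters of 25 and 37 reads and the Grik2 cluster of 31 reads also named a CDS. They had 3, 0 and 0 bases in the 3' UTR of the coding transcript with the longest coding sequence. The others, of 12 reads in Gria2 and 30 and 12 reads in Grik3, named a 3' UTR alone. The comparison without clusters that also name a CDS was not made. In introns the share was the lower one, with 17 of 196 clusters or 8.67%, beside 15.0% over all intron clusters. Over all regions the shares were 15.7% and 12.9%. Gria2 stood apart, with an identifier on 9 of its 10 exonic clusters and 311 of its 323 exonic reads. In Grik2 4 of 6 exonic clusters had one, and in Gria4, Grik1, Grik4 and Grik5 none did. Reads from circular and linear transcripts cannot be told apart in these values.

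Introns of the 9 genes had clusters at 1.81 to 17.0 per 100 kb. The median over protein-coding genes with an intron-only cluster was 5.27. Gria2 and Gria1 were highest with 17.0 and 15.0, followed by Grik3 with 11.7, Grik5 with 10.5 and Gria3 with 10.1. Gria4 and Grik2 had 5.38 and 4.99, and Grik4 and Grik1 had 2.85 and 1.81. The AMPA and kainate ranges overlapped here, unlike for exonic reads. Intron clusters were mostly shallow, with a median of 17 reads, and 91 of 196 had 20 or more.

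Only 4 intron clusters had 100 reads or more. The deepest was in Grik2, with 292 reads at chr10:49674840-49674964 on the minus strand, 114 kb from the gene's start, and it made up 25.7% of the gene's intron reads. A second Grik2 cluster had 123 reads at 131 kb from the start. The others were in Grik3 with 157 reads at 13.7 kb and in Gria1 with 156 reads at 258 kb. The 292-read cluster was deeper than any 3' UTR or CDS cluster of the kainate genes, whose highest were 52 and 42 reads. It held a miR-181 match. In the other genes the deepest intron cluster had 82 reads in Gria3, 47 in Gria4, 38 in Grik4, 37 in Gria2, 33 in Grik5 and 17 in Grik1.

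**Figure D5:**
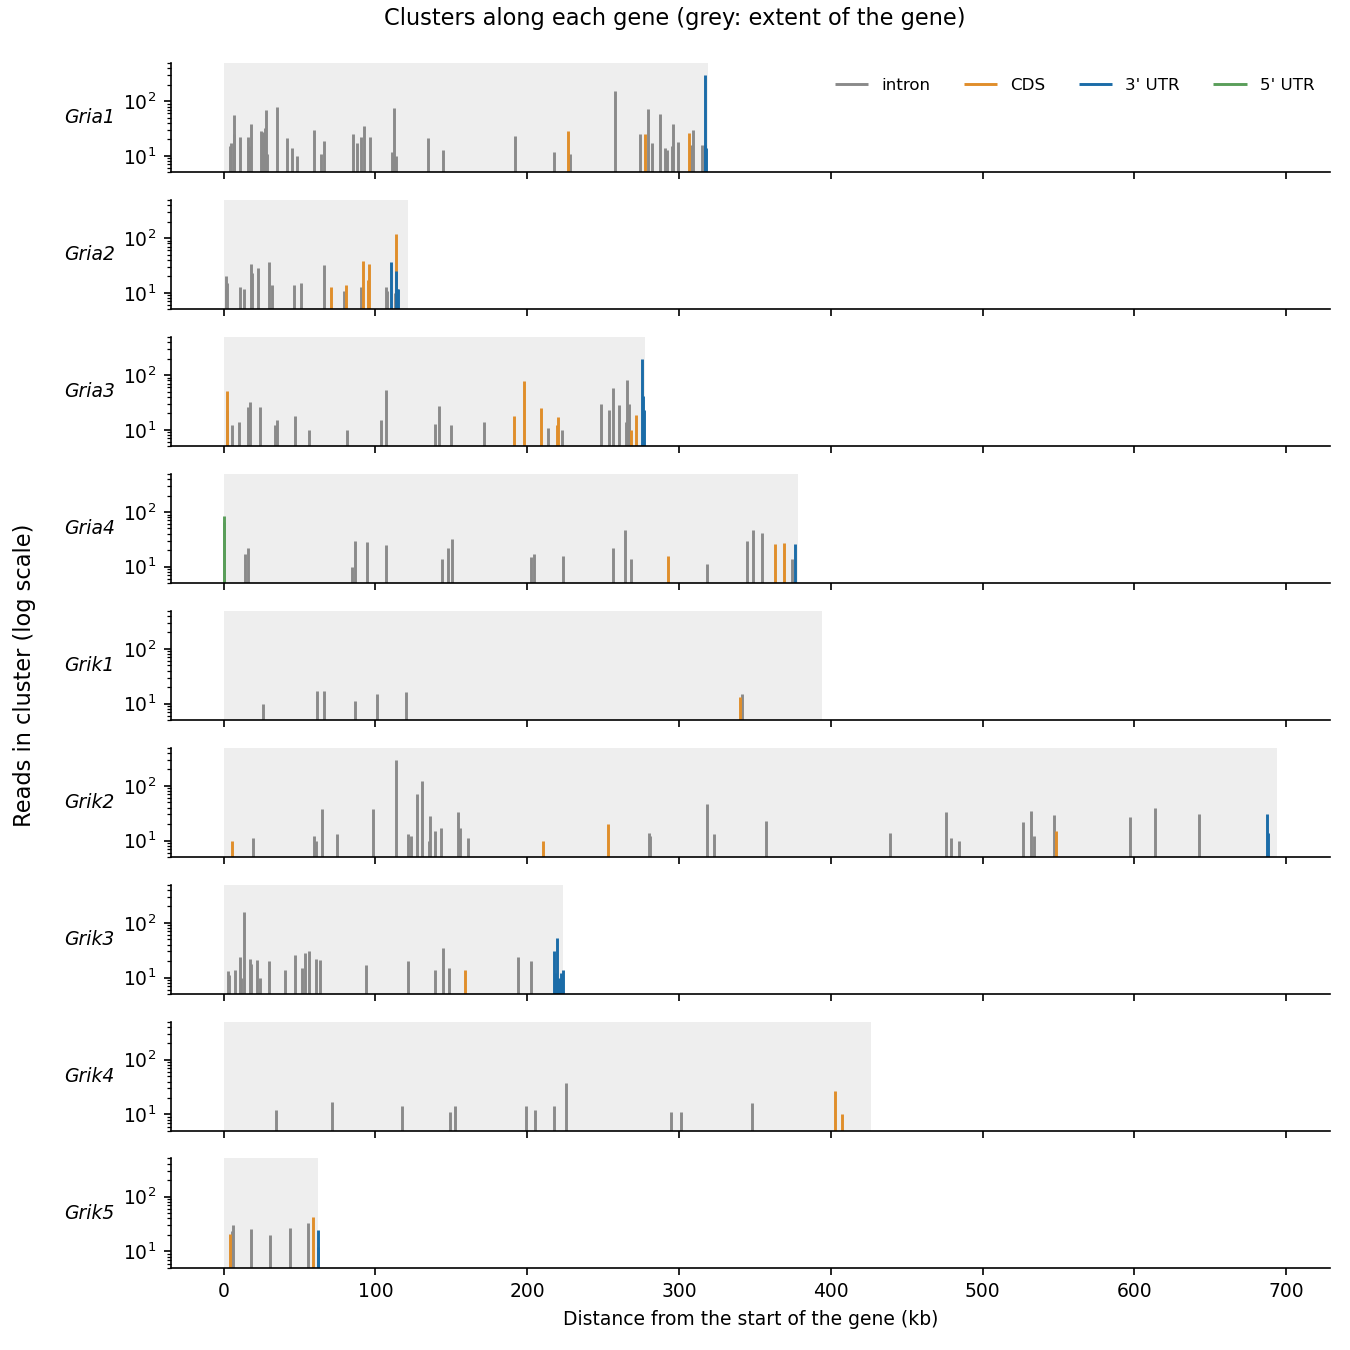
Reads (log scale) of each cluster of the 9 genes by distance from the start of the gene, coloured by region, with the extent of the gene in grey. Grik2 has its 2 deepest intron clusters at 114 and 131 kb, and the 305-read cluster of Gria1 stands at the end of the gene.

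Partners of the receptors were taken from 4 lists. For comparison with each list, 35.9% of protein-coding genes had an exonic cluster. Of those within the subunits' range of exon length, 57.5% did. The median was 13.0 exonic reads per kb over protein-coding genes with an exonic cluster, whereas the list medians include genes without one. Of 14 AMPA auxiliary subunit genes 11 had an exonic cluster, with a median of 7.48 exonic reads per kb over the list. Olfm1, which encodes a secreted protein of AMPA receptor complexes, was highest with 250 exonic reads or 70.4 per kb, and Cnih2, a cornichon that slows the receptor's closing, had 83 reads or 61.8 per kb. Cacng4, Cacng5 and Cacng7, which encode members of the stargazin family, had no exonic cluster.

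Of 10 scaffold, trafficking and editing genes 8 had one, with a median of 14.8 exonic reads per kb. Dlg4, which encodes the postsynaptic scaffold PSD-95, had 185 exonic reads or 14.3 per kb. Its value depended on the length used, with 54.2 per kb over the coding transcript with the longest coding sequence. Akap5, an anchor of kinases and phosphatases, had 167 reads or 24.5 per kb. Grip1 and Grip2, which bind GluA2, had no exonic cluster.

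The list of kainate partners has 7 symbols, of which Klhl17 was not matched in the annotation used and was not analysed here. Of the other 6 genes 5 had an exonic cluster, with a median of 4.80 exonic reads per kb, and Neto1, an auxiliary subunit, had 159 exonic reads. C1ql3, which encodes a secreted synaptic protein, had 59 reads or 23.3 per kb, and its relative C1ql2 had none. Of 7 NMDA receptor subunit genes, which encode the related channels with slow kinetics, 6 had one, with a median of 6.82 per kb. Grin1, the obligatory NMDA subunit, had 345 exonic reads or 79.0 per kb, which lies within the AMPA range. Grin2b had 169 reads or 6.82 per kb, and Grin3b had no exonic cluster. The median of the 4 AMPA genes was thus above those of all 4 lists, and that of the 5 kainate genes, 9.64, was below that of the scaffold list and above those of the auxiliary, kainate partner and NMDA lists.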

How the data were processed

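FLAG-Ago HITS-CLIP libraries of mouse forebrain, 5 Flag-Ago2 and 3 control, were aligned with BWA to mm10, per the submitters' processing notes. How clusters were called and whether controls or duplicate reads were taken into account is not given in the sources used here. Per the file headers, the deposited table gives a count of reads for each of 70142 clusters, with the gene in each region and the count of seed matches per miRNA. It has 0 columns of a single library, so groups were not compared.

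Where a cluster named a gene in several regions, the 3' UTR came before the CDS, the CDS before the 5' UTR and introns last. Lengths are of the union of coding transcripts in GENCODE M21 (GRCm38, the assembly of mm10), and sites were searched on the sense strand of these transcripts. Counting the 6 bases that pair with miRNA bases 2 to 7, overlapping the cluster by at least 1 base, gave the deposited count in 2784 of 2784 values over 87 windows and 32 families. The miR-124 match is the only 6-base word that does so in every window. RefSeq gave mature sequences for 31 of the 32 families. That of miR-101b-3p has another 6-base match than miR-101a-3p, although their columns are equal, and it was left out. The site search was tested on simulated data. Work was done in Python 3.11.15 with pandas 2.3.3, and plots were drawn with matplotlib 3.10.9.

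The members and lists were chosen with earlier results of these data known. Named are all 9 members with their 3' UTR clusters and deepest CDS and intron clusters, in each list the 2 genes with the most exonic reads and those with no exonic cluster, families with matches, and sites of 7 or more bases in the deepest 3' UTR clusters. Other clusters and sites shown were chosen after their values were seen, and 1 result is not reported here. Alternatives were a minimum of 20 reads, each named region counted, no cluster with a circRNA identifier or another gene, other lengths, no deepest cluster, longer seed matches and, chosen after seeing the data, the region in 1 transcript.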

Additional observations from a re-analysis of the deposited data

Results flagged for a closer look

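Opposite the subunit genes, 10 clusters with 155 reads lay on the other strand and were named only in the antisense column, which the counts above do not use. They had 10 to 34 reads each, with a median of 13.5, and lay at Gria1, Gria3, Grik1, Grik2, Grik4 and Grik5. A further 1 cluster of 10 reads, at chrX:41400975-41401189, lay on the strand of Gria3 over its first exons and named no gene of the group. The control level of these clusters cannot be given, and their source was not tested.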

How the results depend on the processing

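No paired analysis was possible because the table has no columns of single libraries, although the groups share replicate numbers. For the same reason no library could be left out. Of 120 values recomputed under alternatives 84 moved little and 36 moved. With a minimum of 20 reads, clusters fell to 11 in 3' UTRs, 15 in CDS and 91 in introns. Without clusters that carry a circRNA identifier, 14 CDS clusters with 323 reads were left, and 12 exonic reads in Gria2. With each named region counted, there were 14 clusters with 650 reads in 5' UTRs. The 7-base match to bases 2 to 8 was not run for miR-124.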
